A study of Mus musculus with 5 samples.

Results

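The genes described here are 10 members of the system that cuts and protects the extracellular matrix: 7 matrix metalloproteases (Mmp2, Mmp3, Mmp9, Mmp12, Mmp13, Mmp14 and Mmp19) and 3 tissue inhibitors of metalloproteases (Timp1, Timp2 and Timp3). They were chosen by gene symbol, and all 10 were found among the 27998 genes of the deposited tables. Single-cell RNA libraries had been made with the 10x Genomics 3′ chemistry from skin of C57BL/6 mice, as suspensions of all skin cells sorted for live cells. There were 2 un-wounded libraries and 3 wounded ones. The wounded mice were 7 weeks old when a 6 mm punch was made, and 4 days after it the wound was cut out within a disc of 10 mm, so a wounded library also holds skin from around the wound. The age of the un-wounded mice is not given in the sources used here. The labels do not say that the libraries came from separate animals, so every p-value below measures the spread between these libraries.

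Matrix metalloproteases are zinc enzymes made as inactive precursors and activated by removal of a propeptide. Most are secreted, whereas Mmp14 is anchored in the cell membrane and activates the Mmp2 precursor in a complex that includes Timp2. TIMPs bind the active site of these proteases and block it, and Timp3 stays bound to the matrix after secretion. In a healing skin wound, proteases of this family open paths for migrating keratinocytes and vessels and remodel the new tissue, and different cell types are known to supply different members.

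In the GRCm38 genome with GENCODE M21 annotation, Mmp13 lies at chr9:7272514-7283331, Mmp12 at chr9:7344381-7369499 and Mmp3 at chr9:7445822-7455975, all on the plus strand of a cluster of protease genes. Mmp2 lies at chr8:92827291-92853420, Mmp9 at chr2:164940780-164955850, Mmp14 at chr14:54431612-54445364 and Mmp19 at chr10:128790910-128800824, also on the plus strand. Timp1 at chrX:20870166-20874735 and Timp3 at chr10:86300372-86349506 are on the plus strand, and Timp2 at chr11:118301069-118355740 is on the minus strand. Exons of Mmp12, Mmp19 and Timp3 overlap exons of genes on the opposite strand (Mmp1b, Tmem198b with Gm47093, and Syn3), and the strand setting of the counting is not given in the sources used here.

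RefSeq promoters on GRCm38.p6 were at hand for 7 of the 10 members. They are shown for the 3 genes of the chromosome 9 cluster, which differ below in the cells that hold their transcripts. Each line gives the 120 bases just before a transcription start on the plus strand, and capitals mark the AP-1 motif TGANTCA and the TATA box TATAAA, both searched on both strands.
Mmp13, chr9:7272394-7272513: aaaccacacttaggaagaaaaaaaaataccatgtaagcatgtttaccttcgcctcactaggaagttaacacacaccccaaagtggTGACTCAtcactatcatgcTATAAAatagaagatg
Mmp12, chr9:7347254-7347373: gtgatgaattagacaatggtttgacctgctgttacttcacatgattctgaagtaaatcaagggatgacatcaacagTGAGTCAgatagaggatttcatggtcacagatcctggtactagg
Mmp3, chr9:7445702-7445821: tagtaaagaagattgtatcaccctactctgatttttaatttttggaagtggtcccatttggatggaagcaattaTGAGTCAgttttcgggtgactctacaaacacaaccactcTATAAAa
The AP-1 motif began at position -35 of Mmp13, -44 of the second Mmp12 start and -46 of Mmp3, counted from the transcription start. The other Mmp12 start had no such motif in its window. Nor was TGANTCA found for the other members with a promoter at hand, Timp1 among them. Over all 32851 RefSeq promoters of the same table, each with 250 bases before and 50 after the start, 7.81% held TGANTCA and 13.6% held TATAAA. A match of letters is a description of the sequence and says nothing about binding.

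The libraries held 5372 and 5517 (un-wounded) and 7578, 4698 and 4152 (wounded) cell barcodes with 33537809 to 59621412 unique molecular identifiers (UMIs, each standing for 1 captured transcript). After filters 25597 cells remained, and clustering without the proteases and their inhibitors gave 31 clusters, of which 28 were named from marker genes in 16 classes and 3 stayed unnamed. Pairs of libraries shared 26 to 63 barcodes. Un-wounded 1 stood apart in composition: fibroblasts made up 9.6% of its cells, against 40.2% in Un-wounded 2 and 31.3 to 42.9% in the wounded libraries, while basal keratinocytes made up 46.1%. Macrophages or monocytes made up 0.1% and 0.7% of un-wounded and 4.2%, 9.6% and 23.6% of wounded cells. Levels are given in CPM, in which a gene's UMIs are divided by all UMIs of the same cells and scaled to a common total, in the order Un-wounded 1 and 2 and Wounded 1, 2 and 3.

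Over whole libraries, the question was which members differed between wounded and un-wounded skin with all cell types summed. Timp1, an inhibitor of most secreted members that is also known to act on cell growth, was measured at 4.41 and 21.0 CPM in the un-wounded libraries and at 337.8, 216.4 and 707.4 CPM in the wounded ones, with no overlap. Mmp13, the main interstitial collagenase of mice, was at 0 and 0.23 CPM and at 4.15, 6.11 and 10.5 CPM. The stromelysin Mmp3, which cuts proteoglycans, laminin and other proteases' precursors, was at 42.9 and 92.3 CPM against 175.4, 181.1 and 251.5 CPM. These 3 genes were higher in every wounded library than in either un-wounded one, as were Mmp2, Mmp9, Mmp12 and Mmp19, which makes 7 of 10 members without overlap, beside 46.2% of all genes tested.

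None of the 10 members passed the test over whole libraries (edgeR quasi-likelihood test, Benjamini-Hochberg adjusted p under 0.05), beside 0.608% of 15469 genes (0.588% higher and 0.0194% lower). The log2 fold change was 5.14 ± 0.96 (SE) for Timp1 and 5.85 ± 1.09 for Mmp13, both with an adjusted p of 0.0693, and 1.64 ± 0.41 for Mmp3 with an adjusted p of 0.095. An unadjusted p under 0.05 was found for 4004 genes, and DESeq2 called 6 of the members beside 2656 of the 15469 genes. The median log2 fold change was 1.93 over the members and -0.04 over all genes tested. A change in whole libraries can come from fewer or more cells of a type or from less or more RNA per cell, and these cannot be told apart there, so the UMIs were next assigned to cell classes.

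With the 5 libraries together, fibroblasts held most UMIs of 7 members. They held 93.7% of the UMIs of Mmp2, a gelatinase that cuts denatured collagen and basement membrane, 94.6% of Mmp3, 77.0% of Mmp14, 67.7% of Mmp19, 89.1% of Timp1, 90.7% of Timp2 and 67.7% of Timp3. The fibroblast share of Mmp14 UMIs was 36.4% in Un-wounded 1, where basal keratinocytes held 47.5%, and 76.4 to 85.6% in the other 4 libraries. For Mmp2 the share was 73.6% in Un-wounded 1 and 93.1 to 96.2% in the others. For Timp3 it was 19.9% in Un-wounded 1, where unnamed clusters held 30.8% and basal keratinocytes 23.2%, and 42.8% in Wounded 1, where pericytes or smooth muscle cells held 30.3%. In the other 3 libraries fibroblasts held 72.2 to 87.5% of Timp3. Un-wounded 1 was the library with the fewest fibroblasts.

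The other 3 members had their UMIs elsewhere. Mmp12, the macrophage elastase, had 45.0% of its UMIs in dendritic cells and 43.9% in macrophages or monocytes. Mmp13 had 45.0% in macrophages or monocytes and 37.4% in fibroblasts, in different proportions by library: macrophages held 5.8%, 57.1% and 61.6% of the Mmp13 UMIs of the wounded libraries and fibroblasts 58.4%, 28.3% and 30.9%. In Wounded 1 unnamed clusters held 19.0% of the Mmp13 UMIs, with 15.9% in cluster 15 alone, and basal keratinocytes held 12.4%. Mmp9, the second gelatinase, had 68.0% of its 3117 UMIs in a single unnamed cluster of 154 cells (cluster 20), 15.8% in fibroblasts and 7.0% in Langerhans cells.

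**Figure D1:**
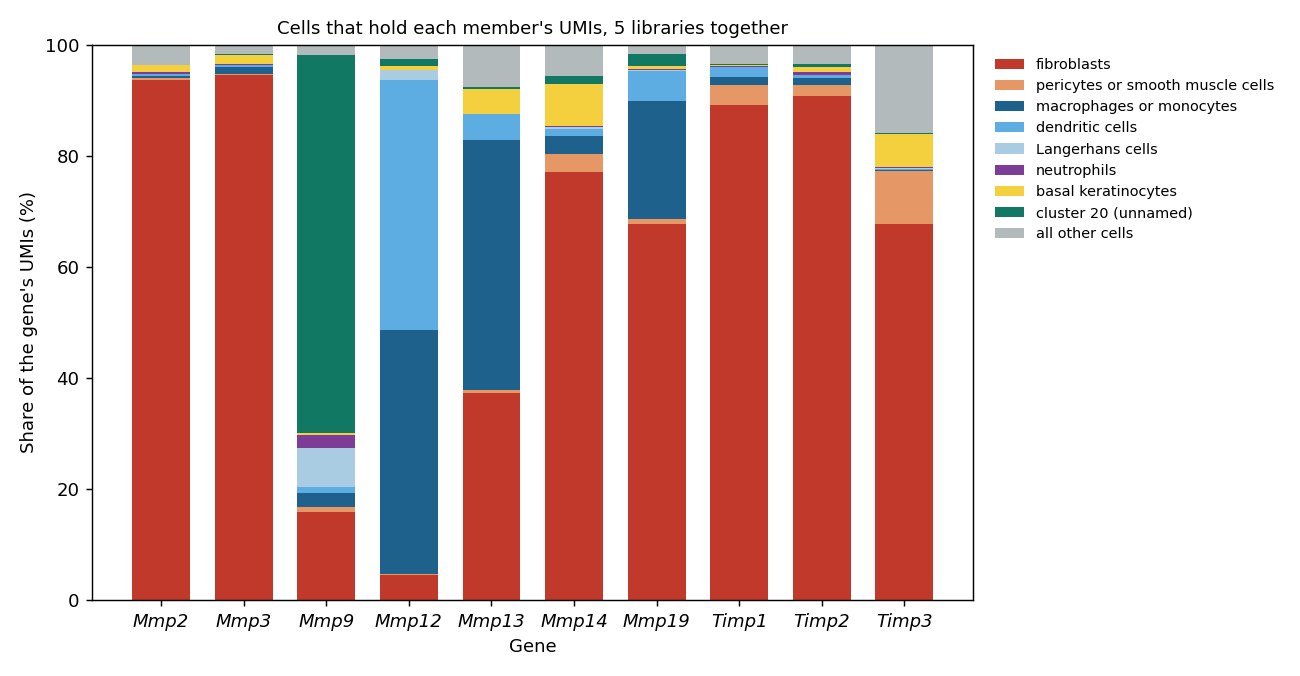
Share of each member's UMIs (vertical axis, percent of the gene's UMIs with the 5 libraries together) held by each cell class, drawn as stacked colours with cluster 20 shown on its own. Fibroblasts hold from 67.7% to 94.6% of the UMIs of 7 members, whereas Mmp12, Mmp13 and Mmp9 lie mostly or partly in myeloid cells.

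The share of UMIs held by each member's leading class, taken among named classes only and so fibroblasts rather than cluster 20 for Mmp9, was compared between groups with a two-sided exact permutation test over the 10 assignments of 5 libraries, in which p cannot go below 0.1. A test was made for 9 members, and p ranged from 0.1 to 0.9 with Benjamini-Hochberg adjusted values from 0.30 to 0.90, so none passed. The dendritic cell share of Mmp12 UMIs was 45.8% and 87.6% in un-wounded and 33.7%, 39.8% and 43.4% in the wounded libraries, a difference of -27.7 percentage points (exact permutation p = 0.1). Macrophages held 0% of the Mmp12 UMIs in both un-wounded libraries, which had only 4 and 38 such cells, and 49.2%, 50.6% and 50.1% in the wounded ones. Mmp13 had no UMI in Un-wounded 1 and 9 UMIs in Un-wounded 2, so its share was not tested.

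**Figure D2:**
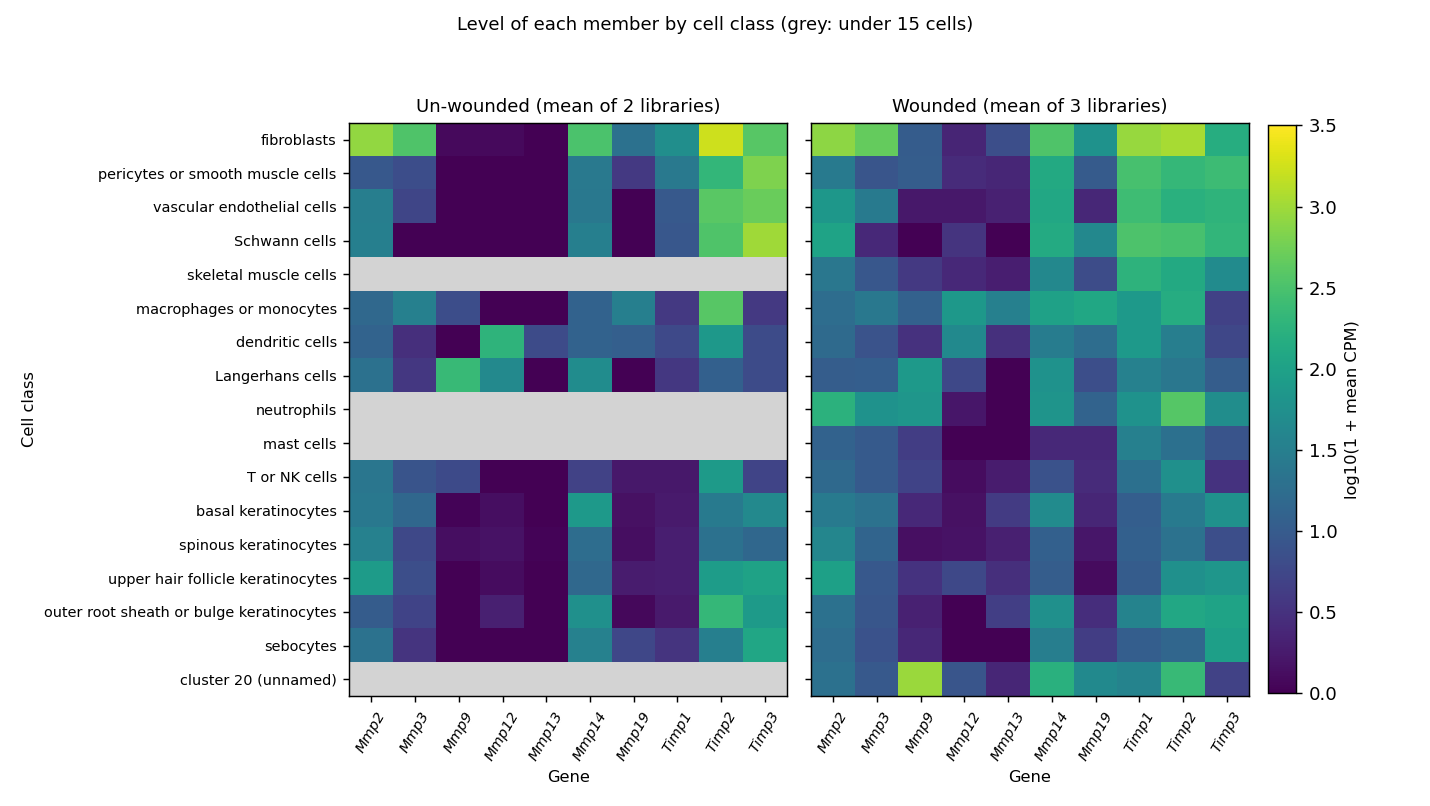
Mean level of each member (colour, log10 of 1 + mean CPM) by cell class in un-wounded and wounded libraries; grey marks classes with fewer than 15 cells in a group. Timp1 is higher in many classes of the wounded libraries, Mmp2 and Mmp3 are high mainly in fibroblasts in both groups, and Mmp12 lies in dendritic cells and, in wounded libraries, macrophages.

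Within fibroblasts, 4 of 10 members were called and all 4 were higher in wounded libraries, beside 7.49% of the 13302 genes tested (5.86% higher and 1.62% lower). These were the inhibitor Timp1 and the proteases Mmp9, Mmp13 and Mmp19. Mmp13 had 0 UMIs and Mmp9 1 UMI in un-wounded fibroblasts, so both passed the filter on low counts through the wounded libraries. These 2 genes could be called only as higher, and the counts and the median given here include them. The fibroblast class had 483 and 2063 cells in the un-wounded and 2208, 1885 and 1399 cells in the wounded libraries. The groups did not overlap for 8 of 10 members, beside 40% of all genes tested, and the median log2 fold change was 1.14 over the members and -0.01 over all genes.

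Timp1 was at 51.3 and 53.0 CPM in un-wounded fibroblasts and at 849, 395 and 1472 CPM in wounded ones. The means were 52.1 ± 1.18 (SD, n = 2) and 905 ± 541 (SD, n = 3), and the 3 wounded libraries differed from each other more than the un-wounded ones did. The log2 fold change was 4.24 ± 0.58 (SE, edgeR adjusted p = 0.00323), and the call held without each library in turn. The share of fibroblasts with a Timp1 UMI, after thinning each cell to 1500 UMIs, was 6.72% (95% exact Clopper-Pearson interval 4.64 to 9.36%), 6.50% (5.47 to 7.65%), 29.2% (27.3 to 31.1%), 21.3% (19.5 to 23.3%) and 45.0% (42.3 to 47.6%). In T or NK cells, which are not known as a main source of Timp1, the thinned shares were 0%, 0%, 5.10%, 1.20% and 5.04%. Without thinning the fibroblast shares were 15.3%, 23.9%, 56.4%, 50.5% and 78.7%, at median depths of 4857 to 9470 UMIs per cell in fibroblasts and 2045 to 3852.5 in T or NK cells. Intervals cover counting error only, and 21 cells of Un-wounded 1 were too shallow to thin.

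Mmp13 had 0 UMIs in un-wounded fibroblasts, which held 16721577 UMIs in all, and 315 UMIs in wounded ones, at 6.99, 3.64 and 7.44 CPM. Every wounded library was above both un-wounded ones. Against a floor of 3 counts over the pooled un-wounded fibroblasts the pooled wounded level was at least 34.4-fold higher. That bound covers counting error only and not the spread between libraries. The edgeR adjusted p was 0.0026. The UMIs came from few cells: the 2 cells with the most Mmp13 UMIs in each library held 45.4% of the fibroblast total.

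Mmp9 had 1 UMI in un-wounded fibroblasts and 493 in wounded ones, at 0.43 and 0 CPM against 8.16, 6.41 and 14.1 CPM. The pooled ratio was 162 (95% interval 28.9 to 6392, counting error only), and the edgeR adjusted p was 0.003. The call was lost without Un-wounded 2 (log2 fold change 4.57, adjusted p = 0.0647), and the 2 highest cells per library held 36.8% of the UMIs. Mmp19, a protease of basement membrane proteins, was at 14.7 and 23.3 CPM and at 66.2, 42.5 and 70.9 CPM, without overlap. Its log2 fold change was 1.70 ± 0.32 (SE, adjusted p = 0.0128), and without Un-wounded 1 it was 1.44 with an adjusted p of 0.0758.

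The proteases with the most fibroblast UMIs did not pass the test. Mmp2 was at 933 and 758 CPM in un-wounded and at 846, 772 and 760.2 CPM in wounded fibroblasts, and the groups overlapped (log2 fold change 0.01 ± 0.24, edgeR adjusted p = 0.986). Mmp14 was at 317 CPM in both un-wounded libraries and at 323.5, 386 and 322 CPM in the wounded ones, a log2 difference of 0.22 ± 0.23 (adjusted p = 0.650). Wounded 1 and 3 lay just above the un-wounded libraries and Wounded 2 farther above. Mmp3 was at 449.7 and 230.5 CPM against 483, 369 and 549 CPM, with overlap (0.58 ± 0.33, adjusted p = 0.358). Mmp12 was near the floor in fibroblasts, with 6 UMIs in un-wounded and 63 in wounded libraries, and was not called.

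Among the other inhibitors, Timp2 was at 1894 and 1552 CPM in un-wounded and at 1301, 1487 and 554 CPM in wounded fibroblasts. Both un-wounded libraries lay above all 3 wounded ones, and the log2 difference of -0.54 did not pass the test (edgeR adjusted p = 0.465). Timp3 was at 196 and 583 CPM against 135, 195 and 120.4 CPM, with Un-wounded 1 next to Wounded 2. Its log2 difference was -1.30 ± 0.42 (adjusted p = 0.0981). DESeq2 and the fit without Un-wounded 1 did call Timp3 (adjusted p = 0.0264 and 0.0152), and without Un-wounded 2 the difference was -0.27 (adjusted p = 0.730).

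**Figure D3:**
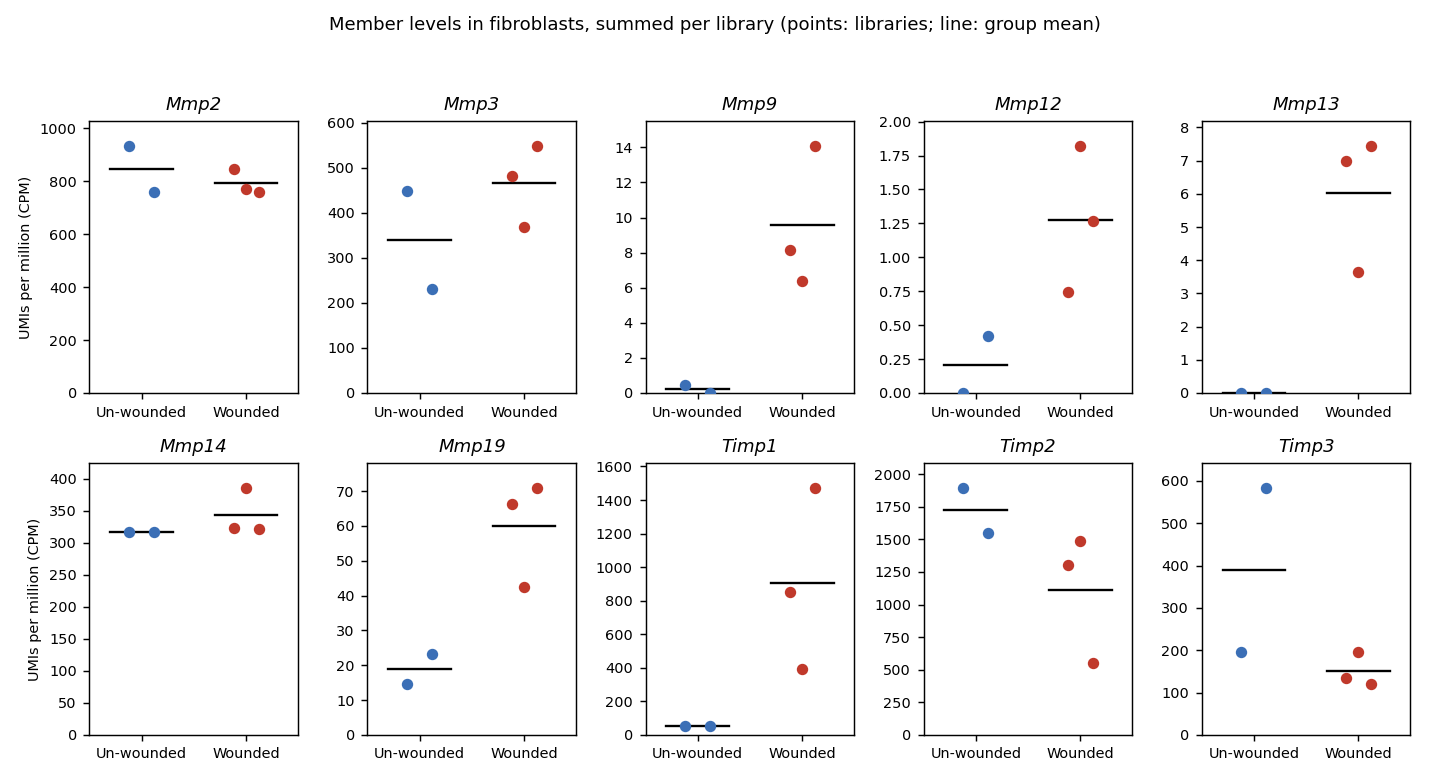
Level of each member in fibroblasts (vertical axis, CPM) in the 2 un-wounded and 3 wounded libraries; each point is a library and the line the group mean. Timp1, Mmp9, Mmp13 and Mmp19 lie higher in every wounded library, and Mmp2 and Mmp14 lie at close levels in both groups.

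In cells, a protease and an inhibitor were mostly found together. After thinning to 1500 UMIs, 82.6%, 80.0%, 85.5%, 85.7% and 83.6% of fibroblasts had a UMI of at least 1 of the 7 proteases, and 89.1%, 90.4%, 92.3%, 92.3% and 84.8% had a UMI of at least 1 of the 3 TIMPs. Cells with both made up 76.1%, 73.4%, 79.3%, 79.0% and 71.5%. A TIMP UMI was found in 92.1%, 91.8%, 92.8%, 92.3% and 85.5% of cells with a protease UMI and in 74.7%, 85.0%, 89.4%, 92.2% and 81.7% of cells without one. The 2 shares were nearly the same in Wounded 2 and farthest apart in Un-wounded 1, the library with the fewest fibroblasts.

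The fibroblast class was made of 6 clusters, and 2 of them lay almost wholly in wounded libraries. Cluster 27, led by Cxcl5, Cthrc1, Sfrp2, Ptx3 and Saa3 with Timp1 itself among its leading genes, had 1 and 4 cells in the un-wounded and 484, 205 and 460 cells in the wounded libraries. It made up 21.9%, 10.9% and 32.9% of the wounded fibroblasts. Cluster 26, led by Cxcl13 and Thbs4, had 2 and 8 cells against 286, 232 and 126.

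Cluster 27 held 85.1%, 67.4% and 86.3% of the Timp1 UMIs of wounded fibroblasts. Of the Mmp13 UMIs it held 83.3%, 74.1% and 95.3%, of Mmp9 93.5%, 54.7% and 57.0%, and of Mmp19 52.4%, 35.6% and 67.2%. Its shares of Mmp2 (23.1%, 12.3% and 34.5%), Mmp3 (26.8%, 14.3% and 37.3%) and Timp2 (18.7%, 8.9% and 24.9%) were below those of the called genes, and in CPM the cluster lay below the fibroblast class as a whole for these 3 genes in every wounded library, as for Mmp2 at 495, 405 and 482 CPM. Its shares of Mmp14 were 40.9%, 20.4% and 48.0% and of Timp3 39.6%, 8.7% and 28.7%, and it held 53.6% of the few Mmp12 UMIs of all fibroblasts. The cluster was found with the proteases and inhibitors left out of the genes used, but its genes come from the same cells, so these shares are a description.

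With clusters 26 and 27 left out, edgeR called none of the 10 members, beside 39 of 12109 genes. Timp1 then was at 50.7 and 52.6 CPM in un-wounded and at 148.7, 165 and 465 CPM in wounded fibroblasts, still without overlap, at a log2 fold change of 2.47 (edgeR adjusted p = 0.0967). Mmp19 was at 14.7 and 22.1 CPM against 37.7, 32.1 and 47.1 CPM (log2 fold change 1.16, adjusted p = 0.124). Mmp9 had an adjusted p of 0.208 and Mmp13 was too low to be tested. Mmp2 was then at 931 and 761 CPM against 1164, 913 and 1167 CPM, with overlap and a higher mean in wounded libraries, and Mmp3 at 451 and 231.5 CPM against 575, 409 and 842 CPM, also with overlap. Timp2 was at 1896 and 1555 CPM against 1894, 1852 and 987 CPM, so its groups overlapped without these clusters.

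In each of the 4 clusters present in both groups Timp1 lay above both un-wounded libraries in every wounded one, which was not tested by cluster. In cluster 8, led by Cpz, Cldn10 and Igfbp5, it was at 66.1 and 47.0 CPM against 117.7, 157.6 and 472 CPM. In cluster 11, led by Coch, Dkk2 and Crabp1, it was at 12.3 and 58.8 CPM against 389, 205 and 612 CPM. Within cluster 27 it reached 1831, 1138 and 2333.5 CPM. Other members also differed by cluster: Mmp3 was at 914, 463, 936, 619 and 1750 CPM in cluster 10, led by Igfbp2, Stc1, Grem1 and Wnt5a, and Timp3 at 441.8, 1434.7, 295.9, 397.3 and 322.2 CPM in cluster 12, led by Lbp, Gpx3 and Dpep1. In cluster 10 of Wounded 3 alone Mmp9 reached 96.3 CPM.

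**Figure D4:**
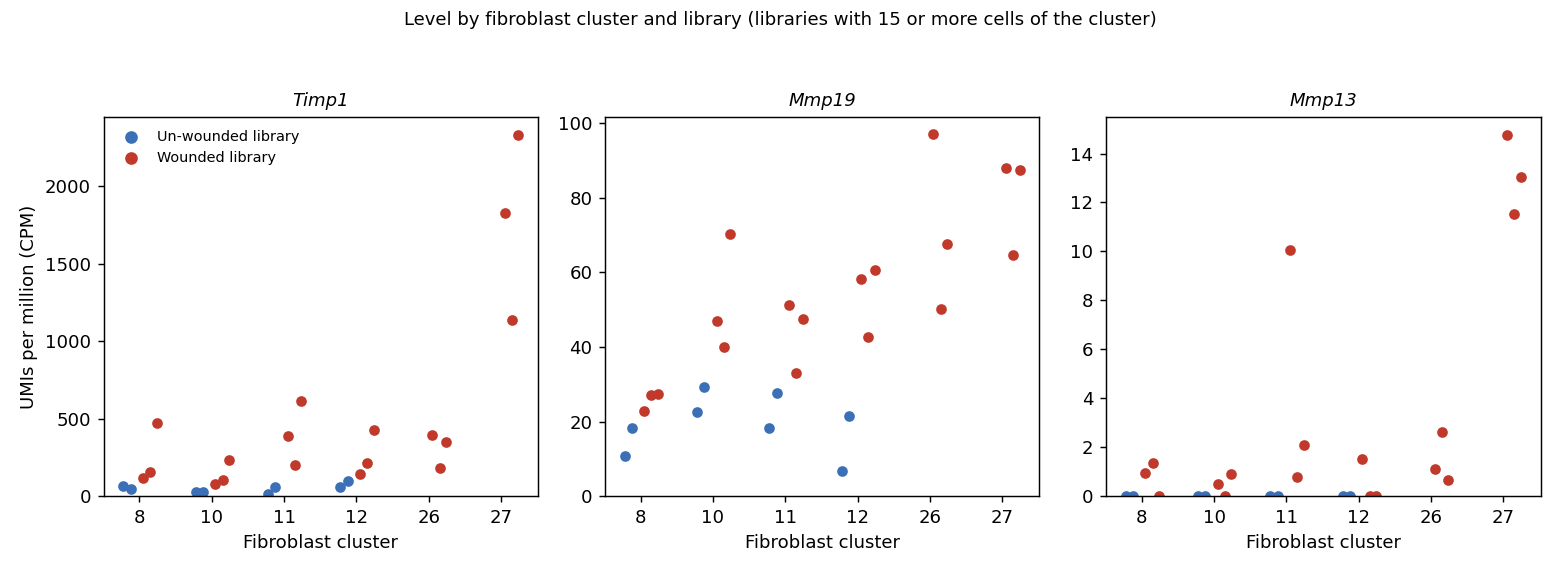
Level of Timp1, Mmp19 and Mmp13 (vertical axis, CPM) in each fibroblast cluster with at least 15 cells, by library. Cluster 27 has Timp1 levels of 1138 to 2333.5 CPM in the wounded libraries, above every other cluster of the same library.

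Macrophage markers were also higher in wounded fibroblasts. The summed level of 11 macrophage or monocyte markers in fibroblasts was 82.8 and 103.4 CPM in un-wounded and 619, 483 and 634 CPM in wounded libraries, with all 11 detected in both groups. For every 1000 macrophage-marker UMIs the wounded fibroblasts had 11.3, 7.53 and 11.7 Mmp13 UMIs, and the macrophages themselves had 1.14, 8.11 and 4.81. For Mmp19 these numbers were 107, 87.9 and 112 in fibroblasts and 18.6, 19.6 and 11.2 in macrophages. The fibroblast ratio was above the macrophage ratio of the same library in all 3 wounded libraries for Mmp19 and in Wounded 1 and 3 for Mmp13. In the un-wounded libraries the Mmp19 ratio was 177 and 225 in fibroblasts, above every wounded library, and 0 and 5.52 in macrophages. The un-wounded Mmp13 ratio was 0 in both classes. The part of macrophage RNA in the fibroblast results was not tested.

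Pericytes or smooth muscle cells, which wrap vessels, showed changes of 3 members among the 4 with enough UMIs to test, beside 17.3% of 3990 genes (8.3% higher and 8.97% lower). Timp1 was at 21.7 and 28.1 CPM against 242, 273 and 405 CPM and rose by 3.63 ± 0.45 (log2, SE, edgeR adjusted p = 0.00234). Mmp14 was at 32.6 and 16.8 CPM against 122.9, 95.8 and 178.6 CPM and rose by 2.44 ± 0.48 (adjusted p = 0.0102). Timp3 was at 749.5 and 584 CPM against 318, 277 and 149 CPM, a log2 fold change of -1.45 ± 0.32 (adjusted p = 0.0155). None of these 3 genes overlapped between groups, beside 52.5% of genes tested. Timp2 was at 223 and 197 CPM against 250.1, 234 and 159.8 CPM, with overlap (0.01, adjusted p = 0.984).

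These pericyte values rest on few un-wounded cells, 49 and 29 against 591, 26 and 87. The Mmp14 call was lost without Un-wounded 2 (log2 fold change 2.14, adjusted p = 0.0866), and the Timp3 call without Un-wounded 1 (adjusted p = 0.128). The summed level of 8 fibroblast markers in these cells also differed, at 1070 and 1611 CPM in un-wounded libraries, where 7 of 8 were detected and Pdgfra was at 0, and at 4334, 5137 and 6006 CPM in wounded ones with 8 of 8 detected. Its part in the results was not tested.

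The fourth inhibitor of the family, Timp4, was mostly a pericyte gene in these libraries, with 78.0% of its UMIs there. In pericytes it was at 320 and 180 CPM in un-wounded and at 36.3, 10.6 and 18.0 CPM in wounded libraries. It fell by 3.30 ± 0.40 on the log2 scale (edgeR adjusted p = 0.00215). Timp1 rose and Timp4 fell in the same class of cells.

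Vascular endothelial cells gave 5 testable members and no call, beside 0% of 2460 genes with edgeR, 355 genes at an unadjusted p under 0.05 and 81 genes with DESeq2. DESeq2 called Timp1 among them. Timp1 was at 0 and 17.2 CPM against 190.6, 62.9 and 509.5 CPM (log2 fold change 4.57 ± 1.33, edgeR adjusted p = 0.189). Mmp14 was at 14.7 and 34.5 CPM against 156, 69.2 and 143 CPM (2.21 ± 0.57, adjusted p = 0.153), and Timp3 at 704 and 310.4 CPM against 176, 239 and 147 CPM (-1.44 ± 0.42, adjusted p = 0.189). For 4 of 5 members the groups did not overlap, beside 32.8% of genes tested. The un-wounded libraries had 19 and 20 of these cells, and the 2 highest cells held 73.5% of the Timp1 UMIs of Wounded 3 and 60% of those of Wounded 2.

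In un-wounded skin the order of classes by Timp3 was pericytes (667 ± 117 CPM, SD, n = 2), endothelial cells (507 ± 278) and fibroblasts (390 ± 274). These neighbours overlapped and do not differ beyond their spread. Schwann cells, with 9 to 34 cells per library, gave 1420, 591, 213, 170 and 215 CPM. In wounded skin the order for Mmp19 was macrophages (120 ± 28.7 CPM, SD, n = 3) above fibroblasts (59.9 ± 15.2), without overlap.

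**Figure D5:**
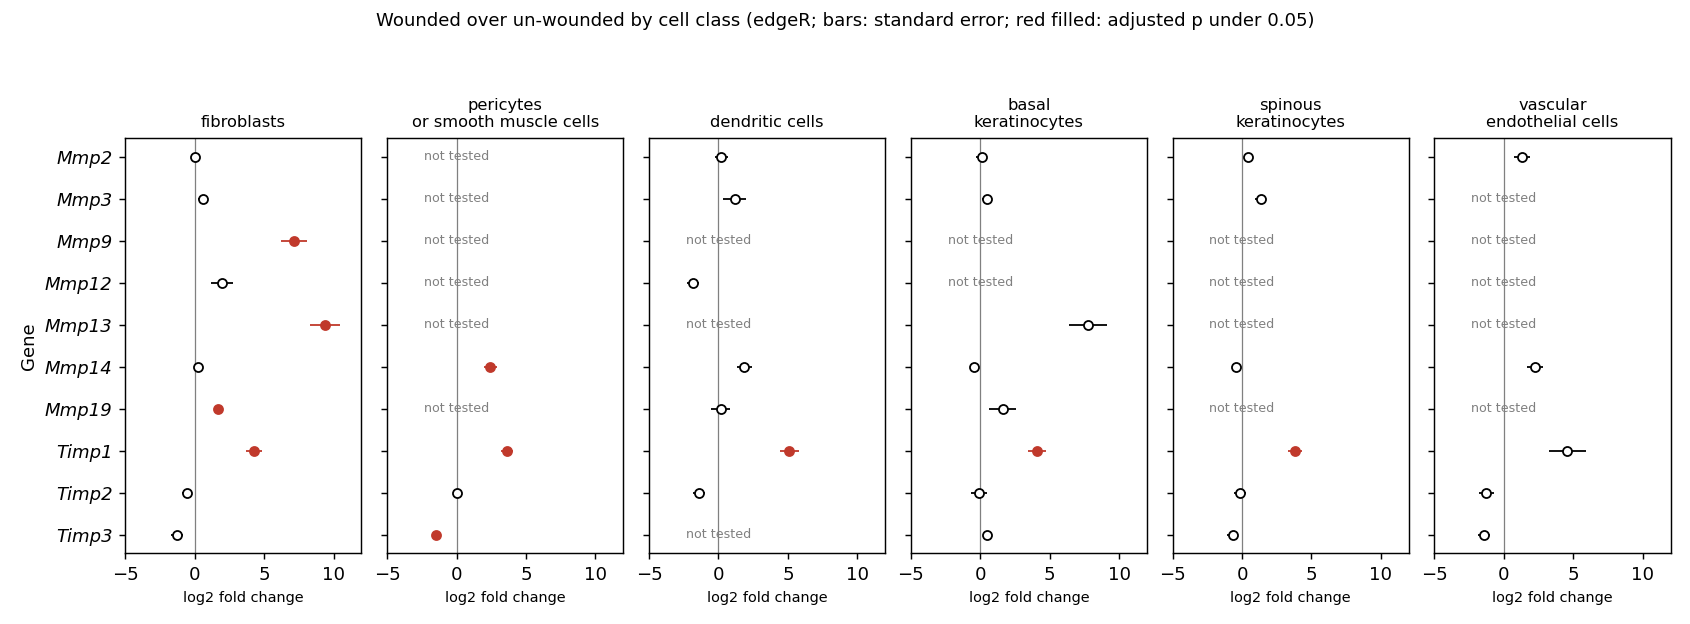
Log2 fold change of wounded over un-wounded libraries (horizontal axis, edgeR estimate ± SE) for each member in 6 cell classes; filled red points have an adjusted p under 0.05. Timp1 lies at 3.63 or higher in all 6 classes. Timp3 lies below 0 in fibroblasts, pericytes, endothelial cells and spinous keratinocytes and above 0 in basal keratinocytes, and was called only in pericytes.

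Among myeloid cells, dendritic cells gave 7 testable members, of which Timp1 was called, beside 2.95% of 8109 genes (2.12% higher and 0.826% lower). Timp1 was at 8.46 and 1.31 CPM against 63.8, 68.5 and 98.5 CPM, from 2 un-wounded and 1000 wounded UMIs, a pooled ratio of 34.3 (95% interval 9.46 to 283, counting error only). The edgeR log2 fold change was 5.11 ± 0.71 (adjusted p = 0.00598), and without Un-wounded 2 it was 3.57 with an adjusted p of 0.243. The class had 20 and 108 cells in the un-wounded libraries. The groups did not overlap for 5 of 7 members, beside 36.9% of genes. The class joined cluster 5 with cluster 28, which had 0 and 2 cells in the un-wounded and 42, 164 and 83 cells in the wounded libraries. In cluster 5 alone Timp1 was at 8.46 and 1.33 CPM against 60.6, 74.2 and 115.7 CPM.

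Mmp12 ran the other way within dendritic cells: 228.4 and 148 CPM in un-wounded and 38.0, 25.7 and 69.9 CPM in wounded libraries, without overlap. The log2 difference of -1.84 ± 0.44 lay just outside the threshold (edgeR adjusted p = 0.0518) and passed it with DESeq2 (adjusted p = 0.0120). In Un-wounded 1 all 27 Mmp12 UMIs of the class came from at most 2 of its 20 cells. In cluster 5 alone Mmp12 was at 228.4 and 150.2 CPM against 44.1, 30.2 and 82.6 CPM. Over whole libraries Mmp12 was higher in all 3 wounded libraries, which had more dendritic cells (3.3%, 20.3% and 10.7% of cells against 0.4% and 2.1%) and more macrophages. Macrophage markers summed to 380.7 and 635 CPM in un-wounded and 837, 1372 and 1196 CPM in wounded dendritic cells, and their part in the result was not tested.

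Macrophages or monocytes could not be tested because Un-wounded 1 and 2 had 4 and 38 of them. Mmp12 was at 0 in both un-wounded libraries and at 68.7, 89.9 and 58.0 CPM in the wounded ones. With the wounded libraries pooled it was at least 4.37-fold higher against the floor of 3 counts over the pooled un-wounded cells. That bound and the one for Mmp13 below cover counting error only and not the spread between libraries. The 2 highest cells held 29.5%, 49.6% and 13.2% of these Mmp12 UMIs in the wounded libraries. Mmp13 was at 0 in both un-wounded libraries and at 9.41, 43.4 and 43.9 CPM, at least 2.51-fold higher with the wounded libraries pooled, although Wounded 1 alone lay below the floor of 15.5 CPM. For Mmp13 the 2 highest cells held 69.2%, 27.5% and 16.0% of the UMIs. Mmp19 was at 0 and 62.9 CPM against 153, 105 and 102 CPM, and Timp1 at 0 and 5.72 CPM against 73.1, 64.9 and 86.7 CPM. In Wounded 1 the macrophages had lower Mmp13 than in the other wounded libraries.

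Cluster 20 had 1 and 1 cells in the un-wounded and 36, 65 and 51 cells in the wounded libraries, so it was not tested. Its leading genes were Acp5 (3975 CPM against 46.3 CPM in all other cells), Atp6v0d2 (533 against 0.7 CPM) and Nfatc1 (323 against 16.6 CPM), genes best known from osteoclasts, with Mmp9 itself at 914 against 5.2 CPM. Of 11 macrophage or monocyte markers, Csf1r (331 against 36.8 CPM), C1qb (127 against 104 CPM), C1qc (90.1 against 49.5 CPM) and Ms4a7 (78.1 against 37.1 CPM) lay above other cells and C1qa level with them (82.4 against 80.9 CPM). The other 6 lay below, among them Adgre1 (7.76 against 12.97 CPM) and Plac8 (15.5 against 311 CPM), as did the neutrophil marker S100a8 (64.3 against 166 CPM). Mmp9 was at 1127, 952 and 744 CPM in its wounded cells, which held 59.6%, 83.6% and 62.7% of the Mmp9 UMIs of those libraries. In all unnamed clusters together, nearly all of whose Mmp9 was in cluster 20, the 2 highest cells held 45.0%, 20.3% and 56.2% of those UMIs. After thinning, 36.1%, 44.6% and 19.6% of its cells had an Mmp9 UMI.

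Beside cluster 20 and the fibroblasts, Mmp9 UMIs lay in Langerhans cells (7.0%), macrophages or monocytes (2.57%) and neutrophils (2.37%). Langerhans cells held 89.5% of the 95 Mmp9 UMIs of Un-wounded 1, at 229.5 CPM in 67 cells, and had 177.6 CPM in 110 cells of Wounded 1, 0 CPM in 7 cells of Wounded 2 and 45.6 CPM in 11 cells of Wounded 3. Un-wounded 2, in which no cell was named as a Langerhans cell, had 6 Mmp9 UMIs. Neutrophils, found only in the wounded libraries among these 5, had 33.8, 84.5 and 88.9 CPM from 74 UMIs. Mmp9 is best known as a granule enzyme of neutrophils, and these cells held few of its transcripts here. They made up 0.8%, 3.4% and 1.1% of the cells of the wounded libraries. Among named classes with at least 15 cells in every wounded library, their mean Mmp9 level was the highest. It was 69.0 CPM, above macrophages (11.4 CPM) without overlap.

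Of the keratinocyte classes, basal and spinous cells were tested, and in both Timp1 was the member called. In basal keratinocytes it was at 0.41 and 1.18 CPM against 13.4, 2.18 and 14.3 CPM, the value of Wounded 2 resting on 1 UMI, and rose by 4.11 ± 0.65 (log2, SE, edgeR adjusted p = 0.0415). That made 1 of 8 testable members, beside 0.217% of 11529 genes, and the groups did not overlap for 2 of 8 members, beside 22.3%. The call was lost without any 1 of Un-wounded 1, Un-wounded 2, Wounded 1 or Wounded 3 (adjusted p = 0.624, 0.109, 0.0767 and 0.204). In spinous keratinocytes Timp1 was at 0.54 and 1.33 CPM against 12.3, 6.49 and 13.3 CPM and rose by 3.81 ± 0.49 (adjusted p = 0.000235), 1 of 6 testable members beside 1.84% of 10842 genes (1.79% higher and 0.0461% lower). The groups did not overlap for 4 of those 6, beside 27.4%.

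In all 3 wounded libraries these keratinocyte levels of Timp1 lay below those of T or NK cells, which had 0, 1.40, 25.8, 11.2 and 18.7 CPM. For every 1000 fibroblast-marker UMIs, basal keratinocytes had 1.05, 1.19, 25.0, 3.51 and 50.4 Timp1 UMIs, spinous keratinocytes 1.44, 1.32, 24.9, 10.8 and 39.8, and the fibroblasts themselves 0.580, 0.644, 15.5, 7.31 and 43.1. Both keratinocyte ratios lay above the fibroblast ratio in most libraries, with basal cells below it in Wounded 2 and spinous cells in Wounded 3. In pericytes the ratios were 20.3, 17.4, 55.8, 53.2 and 67.4, and in dendritic cells 17.9, 1.06, 127, 94.4 and 321. RNA free in the suspension was not tested as a source of the keratinocyte UMIs.

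In basal keratinocytes Mmp13 had 0 UMIs in un-wounded libraries and 28, 0 and 9 UMIs in the wounded ones. With libraries pooled it was at least 29.1-fold higher against the floor of 3 counts. That bound covers counting error only and not the spread between libraries. The edgeR adjusted p was 0.0696, so Mmp13 was not called. The 2 highest cells of each library held 81.1% of those UMIs. DESeq2 called Mmp13 in these cells (adjusted p = 0.00195). So did edgeR with the replicate block (adjusted p = 0.000386), with doublets kept (0.0198) and without Wounded 2 (0.0006), among other settings. It was not called without Wounded 1, without Wounded 3 or without each gene's 2 highest cells. Mmp14 was at 65.9 and 84.3 CPM in basal keratinocytes of un-wounded and at 48.0, 37.1 and 56.4 CPM of wounded skin, without overlap (log2 difference -0.47, adjusted p = 1). Fibroblasts and basal keratinocytes were also compared directly by an interaction term. Of the 10 members 0 were called, beside 1.15% of 13798 genes (0.841% higher and 0.312% lower) with 1404 at an unadjusted p under 0.05. Timp3 came nearest, with a log2 difference of -1.62 ± 0.37 (edgeR adjusted p = 0.0593). Mmp13, with 0 un-wounded UMIs in both classes, had no usable estimate, and the SE was 2.63 for Mmp9 and 1.48 for Mmp12. On simulated data the interaction recovered 44.2% of 4-fold and 2.08% of 2-fold changes. The lack of calls therefore cannot show that the wound effects were equal.

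The rest of the matrix-degrading system was read from lists of genes chosen by function. In fibroblasts the counts below stand beside 5.86% higher and 1.62% lower over all genes tested, and several lists lie near that share. Of 16 other matrix metalloproteases 9 were tested and 3 called. Mmp10, a stromelysin, was at 0 in both un-wounded libraries and at 1.96, 1.55 and 5.60 CPM in wounded ones (edgeR adjusted p = 0.0236). Mmp11, which is also named as a stromelysin, was at 21.6 and 11.9 CPM against 64.6, 48.5 and 77.5 CPM and rose by 2.12 ± 0.33 on the log2 scale (adjusted p = 0.00559). Mmp27 was at 205 and 123 CPM against 71.2, 68.7 and 24.5 CPM and fell by 1.49 ± 0.39 (adjusted p = 0.0497). Of the ADAM family, 4 of 9 genes tested rose and 1 fell. Those with the largest changes were Adam12 (3.02 ± 0.39), Adam19 (2.18 ± 0.29) and Adam23 (1.73 ± 0.38).

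Of 15 tested ADAMTS proteases, secreted enzymes that cut proteoglycans, 2 rose in fibroblasts and none fell: Adamts15 by 4.22 ± 0.48 (edgeR adjusted p = 0.00165) and Adamts7 by 3.09 ± 0.67 (adjusted p = 0.0253). Among 12 partners in activation and at the cell surface 4 rose, led by the inhibitor Tfpi2 (3.06 ± 0.41), the plasminogen activator Plat (2.80 ± 0.32) and the hyaluronan receptor Cd44 (2.53 ± 0.31). Of 8 cathepsins and cystatins Ctss, also a gene of myeloid cells, rose (2.59 ± 0.50). The macrophage markers given above were also higher in wounded fibroblasts, and their part in the Ctss result was not tested. Among 18 matrix substrates Tnc (5.85 ± 0.56) and Spp1 (4.31 ± 0.54) rose and Col17a1 fell by 3.13 ± 0.77, while 15 did not pass the test. Tnc, a matrix glycoprotein of healing tissue, was at 6.90 and 3.47 CPM against 246, 133 and 348 CPM. Col17a1 is a keratinocyte gene. The summed basal keratinocyte markers in fibroblasts were 1645 and 421 CPM in un-wounded and 443.6, 94.7 and 105 CPM in wounded libraries, with overlap. The part of keratinocyte RNA in the Col17a1 result was not tested.

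In pericytes 8 of 11 tested matrix substrates rose and none fell, beside 8.3% higher and 8.97% lower over all genes tested. Col5a1 rose by 3.19 ± 0.44 and Col1a1 by 2.94 ± 0.47 (edgeR adjusted p = 0.00291 and 0.00503), and Tnc, at 0 in both un-wounded libraries, was at 66.9, 103 and 132.4 CPM in the wounded ones. Among 5 tested ADAMTS genes Adamts2, a procollagen peptidase, rose by 3.42 ± 0.39, and 3 fell: Adamts5 by 2.36 ± 0.58, Adamts1 by 1.77 ± 0.27 and Adamts4 by 1.19 ± 0.31. The fibroblast markers given above for pericytes include collagen genes and were higher in the same libraries. The part of fibroblast RNA in these substrate results was not tested.

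Genes most like each member were found by Pearson's r of log2(CPM + 10) over the 31 clusters with the 5 libraries pooled, as a description without a test, since clusters share libraries and depth. Mmp2 was most like Dcn (0.956), Lum (0.956) and Igsf10 (0.950), and Mmp3 most like Pdgfra (0.960), Lum (0.956) and Srpx (0.954). Mmp12 was most like Clec4a3 (0.955), Mmp14 like Ano6 (0.912), Timp1 like Cmtm3 (0.909) and Timp2 like Fndc3b (0.940). The r was lower for Timp3 with Fkbp9 (0.857), Mmp13 with Ccl12 (0.854), Mmp19 with Rgl1 (0.830) and Mmp9 with Atp6v0d2 (0.783), a gene that also led cluster 20.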

How the data were processed

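The authors deposited unnormalized UMI counts of each gene in each barcode for 5 libraries; per the submitters' processing notes they came from Cell Ranger 1.3.1 on mm10, and the annotation, the cell calling threshold and the strand setting are not given in the sources used here. The lowest barcode held 1410 to 2881 UMIs in the libraries, and the tables used here hold none below that. Replicate libraries differed by more than sampling noise (chi-square per degree of freedom 111 to 324). Cells with under 200 genes or over 10% mitochondrial UMIs were left out, as were the barcodes with the highest Scrublet doublet scores (0.8% for each 1000 barcodes). Scanpy 1.11.5 found Leiden clusters at resolution 1 from 2000 variable genes without the proteases and inhibitors. Clusters were named from markers (at least 3 at 10 CPM or more, leading the next class by 0.5). The minimum score of 1.5, and the rule that leaves a cluster unnamed when another class's markers lead it, were set after the values were seen. UMIs were summed per library and class and tested with edgeR 4.0.16 (TMM scaling, quasi-likelihood, all genes kept by its filter, Benjamini-Hochberg adjustment over all of them) for whole libraries and 6 classes chosen by their role in skin, each with at least 15 cells in every library. T or NK cells, sebocytes and the upper hair follicle and outer root sheath or bulge keratinocytes also had that many and were not tested. DESeq2 1.42.0, other filters, scalings, cluster settings and each library left out were alternatives. The fits were tested on simulated data: of genes changed 4-fold, 78.5% were recovered in fibroblasts, 75.6% in pericytes or smooth muscle cells, 40.6% in dendritic cells and 0.909% over whole libraries. False calls were 14 of 110 in fibroblasts, 18 of 89 in basal keratinocytes and 12 of 60 in the interaction, more than the 5% the threshold aims at. All 10 members are described. From each other list the called genes with the largest changes, at most 3, are named. The members and lists were chosen with earlier results of these data known.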

Additional observations from a re-analysis of the deposited data

How the results depend on the processing

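The count of members called depended on the setting, as did the count over all genes. DESeq2 called 2656 of 15469 genes over whole libraries, 99 of 11529 basal, 81 of 2460 endothelial and 304 of 8109 dendritic cell genes. Without a filter on low counts these were 704 of 21041, 221 of 17142, 150 of 14155 and 701 of 15956. The interaction without it gave 596 of 19736. The replicate block gave 282 of 11529 basal, 108 of 2460 endothelial and 906 of 8109 dendritic genes. The other basal settings with 2 members called 51 to 130 genes. Over whole libraries, where edgeR called 0, DESeq2 called 6 and the fit without a filter on low counts 2, and leaving out each library in turn gave 0 to 3. In fibroblasts, where edgeR called 4, the count was 0 without clusters 26 and 27 and 3 to 4 with each library left out. In basal keratinocytes the count of 1 became 2 with DESeq2, without the filter, with the replicate block, with doublets kept, with a mitochondrial limit of 5%, with proteases kept among the variable genes and with clusters of the same score name added (chosen after seeing the data), 0 without TMM scaling, and 0 to 2 with each library left out. In spinous keratinocytes it was 1 to 2 and in pericytes 2 to 3 with each library left out. In endothelial cells 0 became 1 with DESeq2 and with the replicate block, 2 without the filter, and stayed 0 to 0 with each library left out. In dendritic cells 1 became 2 with DESeq2, without TMM scaling and with proteases kept, 4 without the filter, with the replicate block and without each gene's 2 highest cells, and 0 to 2 with each library left out. The interaction gave 1 without the filter and 0 to 1 with each library left out.

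The replicate numbers are not stated to pair libraries and only 2 are shared. As deviations from each group's mean, same-numbered libraries correlated at 0.445 and 0.402 (whole libraries). The deviations of the 2 un-wounded libraries mirror each other. Un-wounded 2 with Wounded 1 therefore gave -0.445 and Un-wounded 1 with Wounded 2 gave -0.402. With the replicate block fibroblasts gave 5 members and 1747 genes, and pericytes 3 members and 818 genes. Of the single-member values under an alternative, 659 kept direction and side of the threshold, 45 passed it newly, 13 no longer passed it and 37 changed sign. All sign changes were of differences that did not pass the test. Mmp2 in fibroblasts became -0.091 without TMM scaling, -0.00080 with the block and -0.044 without each gene's 2 highest cells, and ranged from -0.12 to 0.13 with a library left out. In basal keratinocytes Mmp2 became -0.043 without TMM scaling (range -0.28 to 0.66). Timp2 in basal keratinocytes became 0.080 with DESeq2, 0.51 with the block and 0.018 at resolution 2 (range -0.62 to 0.59), and in spinous keratinocytes 0.45 with the block (range -0.52 to 0.31). In pericytes Timp2 became -0.013 with DESeq2 and -0.28 with doublets kept (range -0.051 to 0.20). With a library left out, whole libraries gave -0.20 to 1.58 for Timp2 and -1.33 to 0.36 for Timp3, and dendritic cells -0.071 to 1.26 for Mmp2 and -0.21 to 8.86 for Mmp19. In the interaction Timp1 became -0.068 without each gene's 2 highest cells, and the ranges were -0.54 to 0.73 for Timp1, -0.72 to 0.40 for Mmp2, -0.12 to 0.40 for Mmp3, -0.82 to 0.69 for Mmp19 and -1.17 to 0.12 for Timp2. The share held by the leading class changed by -6.77 to 2.52 points for Timp1, -3.72 to 6.10 (-0.0822 with doublets kept) for Timp2 and -18.6 to 47.6 for Timp3. Without TMM scaling the median log2 fold change of all genes moved from -0.024 to -0.18 in basal and from -0.034 to -0.22 in spinous keratinocytes, basal calls over all genes went from 25 to 7, and the higher share of interaction calls from 73.0% to 90.0%. Over whole libraries DESeq2 called 2656 genes against 94. The causes were not tested. Classes with 15 to 49 cells in an un-wounded library, and genes with under 10 UMIs there, limit what depth can show.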
